A study of Mus musculus with 2 samples.

Results

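Genes that make, sense and export sterols and fatty acids were examined in RAW264.7, a line of mouse macrophages able to form osteoclasts, after transfection with *Flcn* siRNA or with scramble siRNA. *Flcn* encodes folliculin, a tumour suppressor. The genes were chosen by name, with results of these arrays already known, and comprise 37 genes in 5 groups: 7 of the early mevalonate pathway, 11 from squalene to cholesterol, 6 that control or respond to SREBP, 9 of fatty acid synthesis and desaturation and 4 of LXR and sterol efflux. Of the 37 genes, 36 had a probe set that names only that gene in the platform annotation, and all 36 passed the filter on low signals described here, among 10285 genes that did so. *Acat2*, the thiolase that starts the pathway from acetyl-CoA, is not analysed here. In both conditions the medium was changed 24 hours after transfection to MEM with 10% FCS, and RNA was taken after another 48 hours. The methods list 1 *Flcn* siRNA sequence and 1 negative control siRNA, and neither the array methods nor the sample labels name RANKL. Each condition has a single Affymetrix mouse genome array. Without replicates no test was possible, and the precision is limited by the number of arrays.

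Cholesterol is built from acetyl-CoA through mevalonate and isoprenoid units to squalene, which is closed into lanosterol and then trimmed and reduced to cholesterol. The genes of most steps are switched on by SREBP transcription factors, which are held in the endoplasmic reticulum by Scap and Insig proteins while sterols are plentiful and are carried to the Golgi and cut free when sterols run low. Fatty acid synthesis and desaturation genes answer to SREBP as well. When sterols are in excess, oxysterols activate LXR, which raises the transporters that load cholesterol onto lipoproteins. Macrophages are known for handling large amounts of cholesterol taken up from lipoproteins and dead cells.

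Because SREBP acts at promoters together with NF-Y, which binds CCAAT boxes, and Sp1, which binds GC boxes, the promoters of the members were searched for such motifs. RefSeq windows of 300 bases in GRCm38.p6, from 250 before to 50 after a transcript start, were at hand for 29 of the 37 members, as 38 windows of which some overlap. The bases before the start are printed here, 5′ to 3′ on the gene's strand, for *Hmgcs1*, the member with a match to the sterol regulatory element, for the gene with the highest ratio among holders of a CCAAT box in each of 3 groups (*Idi1*, *Hsd17b7* and *Srebf1*), and for *Abca1* of the LXR group. *Hmgcs1* was thus chosen by its motif match, and *Idi1*, *Hsd17b7* and *Srebf1* after both matches and ratios were seen. They lie at chr13:119690101-119690350 (+) for *Hmgcs1*, chr13:8885356-8885605 (+) for *Idi1*, chr1:169969206-169969455 (-) for *Hsd17b7*, chr11:60210472-60210721 (-) for *Srebf1* and chr4:53159896-53160145 (-) for *Abca1*. Capitals mark the sterol regulatory element (TCACNCCAC) and the CCAAT box (GCCAAT, which reads ATTGGC on the other strand).
Hmgcs1: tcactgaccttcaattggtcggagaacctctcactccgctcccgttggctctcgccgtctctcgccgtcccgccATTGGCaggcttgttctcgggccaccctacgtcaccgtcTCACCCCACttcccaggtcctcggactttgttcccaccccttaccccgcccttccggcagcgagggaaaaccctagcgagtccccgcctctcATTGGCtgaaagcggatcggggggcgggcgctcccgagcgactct
Idi1: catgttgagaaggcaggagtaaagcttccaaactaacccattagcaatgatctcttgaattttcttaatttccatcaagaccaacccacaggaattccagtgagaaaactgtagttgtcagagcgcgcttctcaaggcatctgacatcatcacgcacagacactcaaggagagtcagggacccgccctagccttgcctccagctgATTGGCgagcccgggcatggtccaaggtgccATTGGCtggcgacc
Hsd17b7: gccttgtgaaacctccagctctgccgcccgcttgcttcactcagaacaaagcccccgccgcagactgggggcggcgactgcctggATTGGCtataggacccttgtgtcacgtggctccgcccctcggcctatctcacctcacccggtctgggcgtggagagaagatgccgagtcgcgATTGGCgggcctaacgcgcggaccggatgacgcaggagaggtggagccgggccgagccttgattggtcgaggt
Srebf1: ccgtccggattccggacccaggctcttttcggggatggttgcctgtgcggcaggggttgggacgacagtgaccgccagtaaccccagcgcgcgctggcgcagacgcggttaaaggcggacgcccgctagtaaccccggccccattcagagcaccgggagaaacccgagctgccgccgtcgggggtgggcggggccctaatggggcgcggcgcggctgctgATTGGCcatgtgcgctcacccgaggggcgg
Abca1: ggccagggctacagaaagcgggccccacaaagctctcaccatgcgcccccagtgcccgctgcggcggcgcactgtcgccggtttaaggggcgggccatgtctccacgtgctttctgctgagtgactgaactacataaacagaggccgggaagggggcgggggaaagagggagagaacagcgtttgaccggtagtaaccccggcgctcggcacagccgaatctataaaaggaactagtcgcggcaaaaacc

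In the *Hmgcs1* window the sterol regulatory element began at -137, counted from the start, with CCAAT boxes on the opposite strand at -176 and -45 and another at 11, past the bases printed. *Idi1* held CCAAT boxes at -45 and -14, *Hsd17b7* at -165 and -73 and *Srebf1* at -30, each read on the opposite strand. The *Abca1* window held no CCAAT box, but GC boxes at -163 and -97 and an E-box at -147. Searched on both strands, the CCAAT box was present in 17 of 38 member windows (44.7%), against 14.7% of 32851 windows of all genes. The GC box (GGGCGG) was present in 71.1% of member windows and in 35.7% of all windows, and the E-box (CACGTG) in 21.1% and 7.15%. By group, members with a CCAAT box were 5 of 6 in the early mevalonate group, 6 of 9 in the late sterol group, 4 of 5 in SREBP control, 1 of 6 in fatty acid synthesis and 1 of 3 in the LXR group. The exact sterol regulatory element was found in 1 of 38 member windows (2.63%) and in 1.24% of all windows. Variants of it were not searched for, so windows without an exact match may still hold such an element. No member window held the motif TCACGTGA or an exact match to the DR4 motif of LXR. TCACGTGA is of the CLEAR type recognised by Tfe3 and its relatives and contains the E-box. TCACGTGA and the exact DR4 motif were found in 0.974% and 0.0152% of all windows. The DR4 motif was searched only as a fixed pattern of 16 bases, and looser forms of it were not searched for. The printed bases of the LXR targets *Abca1* and *Srebf1* hold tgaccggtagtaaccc and tgaccgccagtaaccc. Read on the opposite strand, both resemble the DR4 motif without matching it exactly. The lack of an exact match thus does not mean that these windows lack an LXR site, and binding was not tested. The 17 members with a CCAAT box had a median log2 ratio (*Flcn* siRNA over scramble siRNA) of 0.18, and the 11 measured members without one had 0.54. For the E-box it was 0.15 in 7 measured members with it and 0.54 in 21 without. For the GC box it was 0.45 in 22 with it and 0.40 in 6 without. Holders are spread unevenly over the groups, and these differences were not tested.

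The deposited values are signal intensities from the Affymetrix GCOS software. Their median was 13.6 with *Flcn* siRNA and 12.8 with scramble siRNA, lower signals were raised to that median, and a gene was called higher or lower at 1.5-fold or more, which is 0.58 on the log2 scale. *Flcn* itself had a signal of 145 against 209 and of 206 against 241 at its probe sets above the filter. *Gpnmb*, a known target of Tfe3, had 2500 with *Flcn* siRNA and 294 with scramble siRNA. All 8 macrophage markers examined, such as *Csf1r* and *Lyz2*, had signals of at least 319 with *Flcn* siRNA and 374 with scramble siRNA, with a median log2 ratio of -0.08, while 23 markers of lymphocytes, fibroblasts and bone-forming cells, epithelial cells, hepatocytes and adipocytes had signals of at most 22 with *Flcn* siRNA and 20 with scramble siRNA. Actin control probe sets gave a 3′ over 5′ ratio of 1.34 with *Flcn* siRNA and 1.44 with scramble siRNA, and those of Gapdh gave 0.797 and 0.846.

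Most sterol and fatty acid synthesis genes had higher signals on the *Flcn* siRNA array. Signals were lower, though by less than 1.5-fold, for *Mvd* (log2 ratio -0.50), *Abcg1* (-0.41), *Ebp* (-0.14) and *Insig2* (-0.06). Of 36 measured members, 32 had a log2 ratio above 0 and 4 had one below 0, and the median was 0.38, against 0.01 over all 10285 genes. By 1.5-fold or more, 13 of the 36 were higher, against 5.85% of all measured genes, and 0 were lower, against 5.52%. Of the 13, 7 belong to the late sterol group, 3 to fatty acid synthesis, 2 to the early mevalonate group and 1 to SREBP control. The median log2 ratio was 0.60 in the late sterol group, 0.51 in fatty acid synthesis, 0.41 in the early mevalonate group, 0.20 in SREBP control and 0.12 in the LXR group. Since the genes were picked with these values known, the counts describe the arrays and support nothing further, and differences between the groups were not tested.

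**Figure D1:**
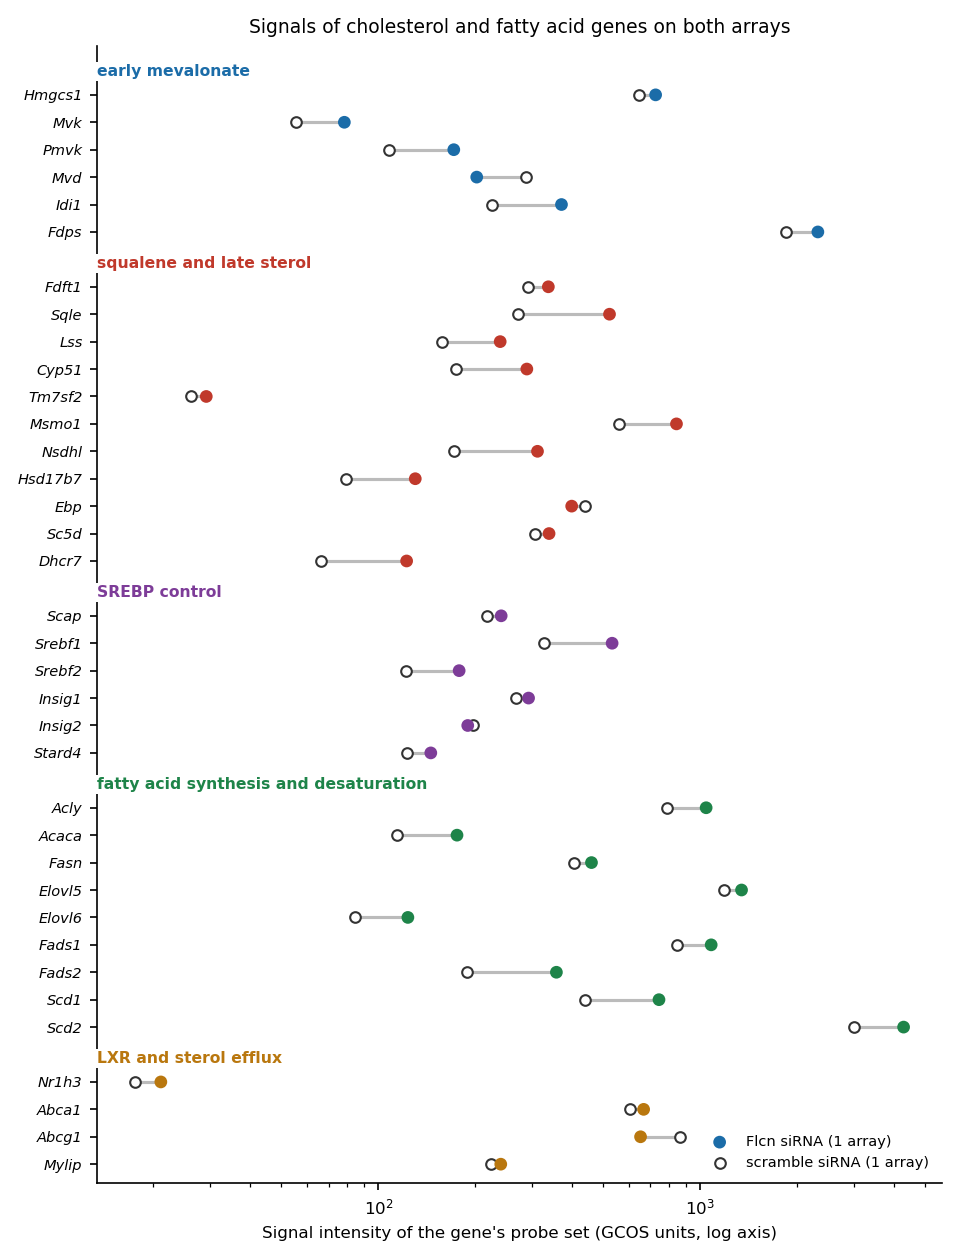
Signal intensity of the probe set used for each measured gene with *Flcn* siRNA (filled points) and with scramble siRNA (open points), on a log axis, in order of the pathway. Each point is 1 array, so there are no error bars; in 32 of 36 genes the filled point lies to the right of the open one.

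The early mevalonate group covers the steps from acetyl-CoA to farnesyl diphosphate. Of its 6 measured genes 5 had higher signals on the *Flcn* siRNA array, 2 of them by 1.5-fold or more. *Idi1*, the isomerase that readies isopentenyl diphosphate for condensation, gave a signal of 371 with *Flcn* siRNA, against 225 with scramble siRNA (log2 ratio 0.72), and its second probe set had 169 against 85.5 (0.98). *Pmvk*, which adds the second phosphate to mevalonate, had 172 against 108 (0.67). The kinase before it, *Mvk*, had 78.4 against 55.6 (0.50), with 0.20 at its other probe set. Both ends of this stretch lay nearer 0. *Hmgcs1*, the HMG-CoA synthase whose promoter carries the exact sterol regulatory element, had 727 against 645 (0.17), and its 4 probe sets above the filter lay between 0.11 and 0.23. *Fdps*, which joins isoprenoid units into farnesyl diphosphate, had 2319 against 1852 (0.32). *Mvd*, the decarboxylase between *Pmvk* and *Idi1*, ran the other way, with 202 against 287 (-0.50), and -0.21 at its other probe set. Neighbouring steps of 1 linear pathway thus had log2 ratios of 0.67, -0.50 and 0.72.

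In the group from squalene to cholesterol, 10 of 11 genes had higher signals on the *Flcn* siRNA array, and 7 of them by 1.5-fold or more. *Sqle*, the squalene epoxidase and a rate-limiting step of the pathway, had the highest ratio of all members, with signals of 522 with *Flcn* siRNA and 272 with scramble siRNA (log2 ratio 0.94). It ranked 119th of the 10285 measured genes. *Fdft1*, the squalene synthase just before it, had 337 against 291 (0.21), with 0.26 at its other probe set. *Lss*, which closes the epoxide into lanosterol, had 239 against 157 (0.60), and 0.83 at a second probe set. *Cyp51*, the lanosterol demethylase, had 289 against 174 (0.73), and 0.65 at a second one. Both steps after squalene epoxidation were thus past 1.5-fold at each probe set above the filter. *Tm7sf2*, a sterol reductase of the next step, had weak signals of 29.2 and 26.1 (0.16).

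The 3 enzymes that together strip the methyl groups from carbon 4 of the sterol were all past 1.5-fold at the probe set used. *Nsdhl*, the dehydrogenase that takes off the carboxyl group, had a signal of 312 against 172 (log2 ratio 0.86). *Hsd17b7*, the ketoreductase, had 130 against 79.2 (0.72), but its 2 other probe sets above the filter had 0.24 and 0.25. *Msmo1*, the methyl oxidase, had 843 against 560 (0.59), just inside the threshold, and 0.39 at a weak second probe set with signals of 16.8 and 11.9, where the scramble siRNA signal was raised to the array median and the ratio is thus a lower bound. Among the closing steps the genes parted. *Dhcr7*, the reductase that makes cholesterol, had 122 against 66.2 (0.89). *Sc5d*, the desaturase that feeds it, had 339 against 306 (0.15), with 0.27 and 0.31 at its other probe sets. *Ebp*, the isomerase before *Sc5d*, had 399 against 440 (-0.14).

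**Figure D2:**
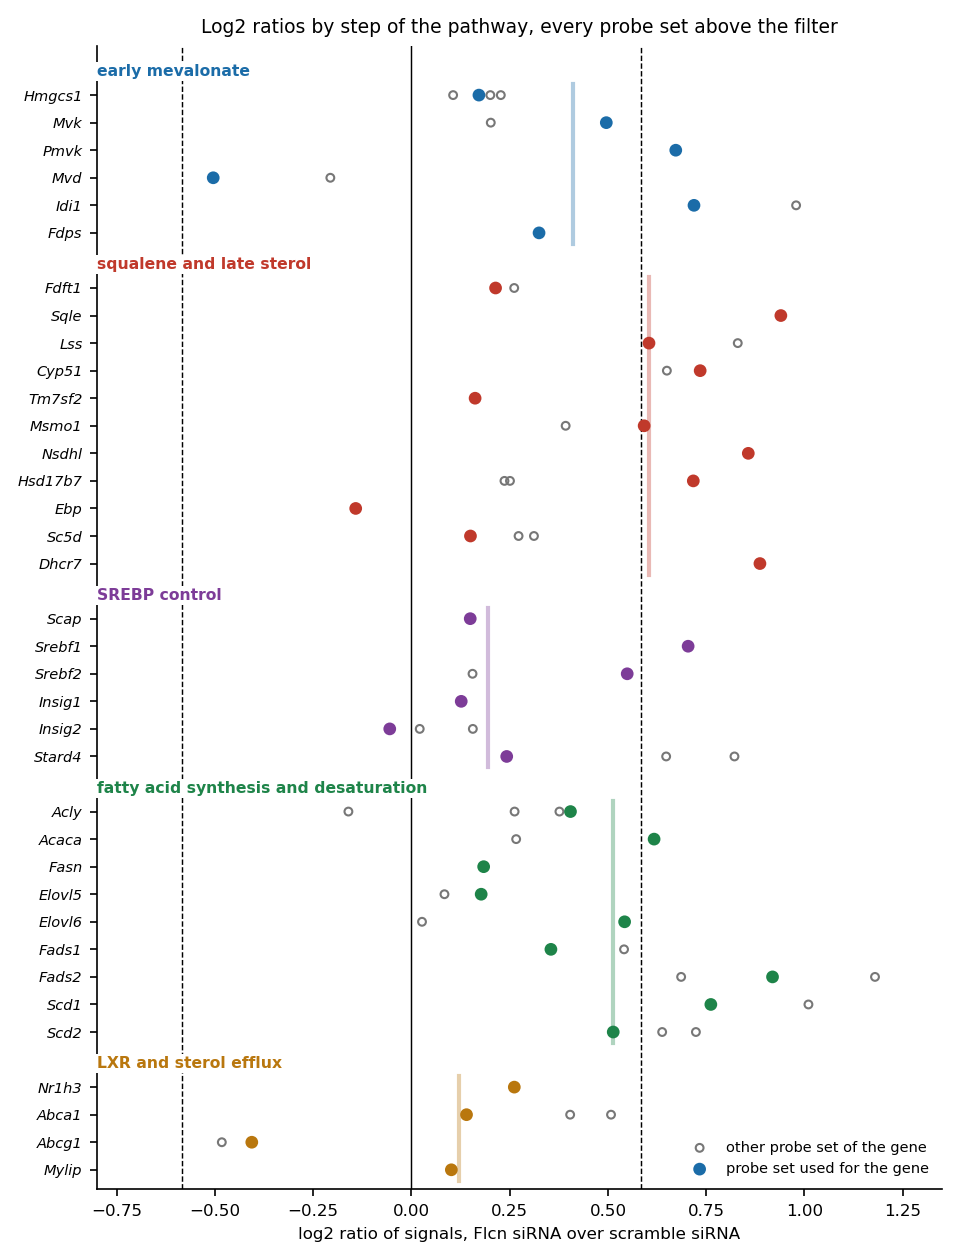
Ratio of *Flcn* siRNA to scramble siRNA signals on the log2 scale for every measured gene in order of the pathway, at the probe set used (filled) and at every other probe set above the signal filter (open). Shaded bars are group medians, dashed lines mark 1.5-fold and 1 array stands behind each condition. The widest gaps between probe sets of 1 gene are those of *Stard4*, *Acly* and *Elovl6*, and the *Acly* probe set below 0 is weak.

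The SREBP control group was uneven. *Srebf1*, which encodes the SREBP forms that favour fatty acid genes, gave a signal of 532 with *Flcn* siRNA, against 327 with scramble siRNA (log2 ratio 0.70), at its only probe set, which cannot separate its transcript forms. *Srebf2*, whose protein favours sterol genes, had 178 against 122 (0.55), just outside the threshold, but 91.1 against 81.8 (0.16) at its other probe set. *Scap*, the escort of SREBP to the Golgi, had 241 against 217 (0.15). The retention factors lay near 0: *Insig1*, itself a well-known SREBP target, had 293 against 268 (0.13), and *Insig2* had 190 against 197 (-0.06), with 0.02 and 0.16 at its other probe sets. *Stard4*, a sterol carrier protein that SREBP also raises, had 146 against 123 (0.24) at the probe set used, but 150 against 95.4 (0.65) and 107 against 60.7 (0.82) at its other 2, both past 1.5-fold.

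All 9 genes of fatty acid synthesis and desaturation had higher signals on the *Flcn* siRNA array, and 3 of them by 1.5-fold or more. Desaturases put double bonds into fatty acids, and *Fads2* and *Scd1* had the highest ratios of the group. *Fads2*, the first desaturase of polyunsaturated fatty acids, gave a signal of 357 with *Flcn* siRNA, against 189 with scramble siRNA (log2 ratio 0.92), and 0.69 and 1.18 at its other probe sets. *Fads1*, the desaturase that follows it, had 1081 against 845 (0.35), and 0.54 at a weaker one. *Scd1*, which makes oleate from stearate, had 744 against 439 (0.76), and 200 against 99.3 (1.01) at its second probe set. *Scd2*, its relative, had 4281 against 2999 (0.51), and 0.64 and 0.72 at its other probe sets.

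The enzymes that build the carbon chain had 1 member past 1.5-fold. *Acaca*, the acetyl-CoA carboxylase that makes malonyl-CoA, had a signal of 176 against 114 (log2 ratio 0.62), with 0.27 at a weak second probe set. *Acly*, which splits citrate into cytosolic acetyl-CoA, had 1043 against 788 (0.40). Its 3 other probe sets above the filter had 0.26, 0.38 and, at weak signals of 13.5 against 15.2, -0.16. At that weak probe set the *Flcn* siRNA signal was raised to the array median. *Fasn*, the fatty acid synthase, had 459 against 404 (0.18). Of the elongases, *Elovl6*, which acts on saturated chains, had 124 against 84.8 (0.54), but 48.9 against 48.0 (0.03) at its other probe set, and *Elovl5*, which acts on polyunsaturated chains, had 1343 against 1188 (0.18).

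Genes of LXR and sterol efflux lay within 1.5-fold in either direction. *Abca1*, the transporter that hands cholesterol to lipid-poor apolipoprotein, gave a signal of 667 with *Flcn* siRNA, against 605 with scramble siRNA (log2 ratio 0.14), and 0.40 and 0.51 at 2 weaker probe sets, the second with its scramble siRNA signal raised to the array median. *Abcg1*, which exports cholesterol to mature particles, was on the other side of 0, with 652 against 865 (-0.41) and 65.7 against 91.8 (-0.48). *Mylip*, the LXR-induced ligase that degrades the LDL receptor, had 240 against 224 (0.10). *Nr1h3*, which encodes LXR alpha, had signals of 21.1 and 17.6 (0.26), close to the array medians. *Srebf1* is an LXR target as well, and its log2 ratio of 0.70 thus stood above those of all 4 genes of this group.

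**Figure D3:**
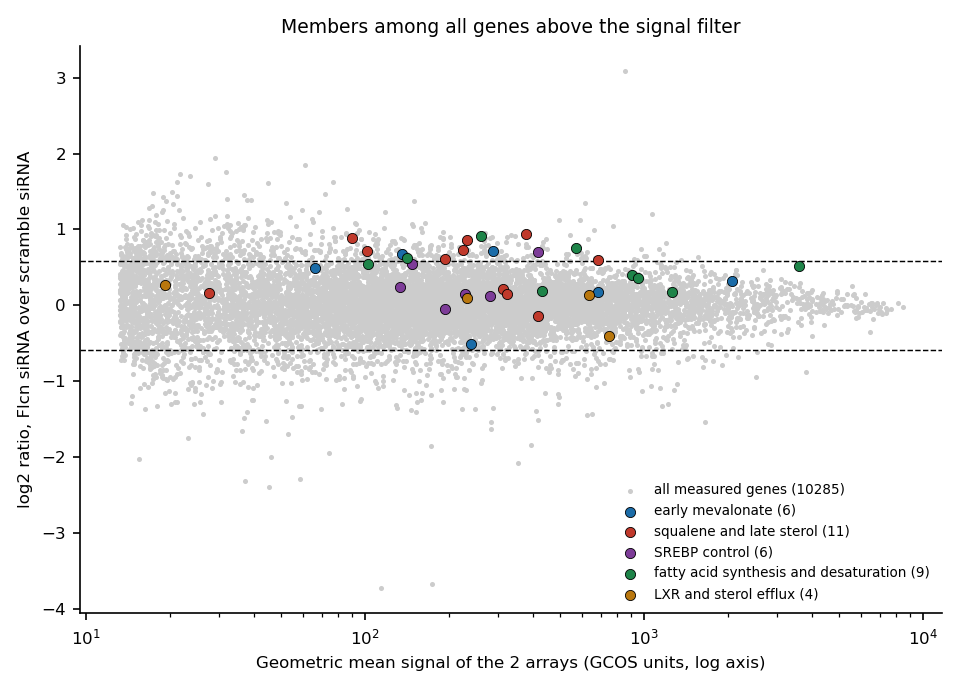
Log2 ratio, *Flcn* siRNA over scramble siRNA, against the geometric mean signal of both arrays (log axis) for all 10285 measured genes (grey) and for the members (coloured by group), 1 array per condition. Dashed lines mark 1.5-fold, which 13 members reach on the higher side and 0 on the lower side.

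Probe sets of 1 gene are the only repeat measure on these arrays. They read the same RNA, so they show technical spread and not replicate error. Across genes that had 2 or more probe sets past the filter, the median SD of the log2 ratio between them was 0.19. Of 23 members with at least 2, 19 had every probe set above 0, and *Mvd* and *Abcg1* had both below 0. *Insig2* and *Acly* had probe sets on either side, but the *Acly* probe set below 0 was weak, close to the array medians. Counted by probe set, 63 of 70 lay above 0, with a median of 0.32, against 51.6% and a median of 0.01 for all 18983 named probe sets above the filter. *Idi1*, *Lss*, *Cyp51*, *Fads2* and *Scd1* were higher by 1.5-fold or more at each of at least 2 probe sets. *Sqle*, *Nsdhl*, *Dhcr7*, *Srebf1* and *Pmvk* rest on 1 probe set each. The remaining 3 members called higher, *Acaca*, *Msmo1* and *Hsd17b7*, were past 1.5-fold at 1 probe set alone.

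The count was also taken among strong signals. Above a signal of 92.3, the 75th percentile, 32 members remained, of which 12 were higher by 1.5-fold or more and 0 lower, while 3.13% of the 6812 genes above that signal were higher and 3.93% were lower. *Dhcr7*, with a geometric mean below it, was the called member left out. The scale of the arrays matters too. With signals divided by the array median every log2 ratio drops by 0.09. The same 32 members then lay above 0, but *Acaca*, *Lss* and *Msmo1* no longer reached 1.5-fold, which left 10, and *Mvd* passed it on the lower side (-0.59). Over all measured genes 602 were higher and 568 lower, so that higher genes made up 51.5% of the calls, and with that scaling 418 were higher and 807 lower, or 34.1%.

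Lists of neighbouring genes, written from general knowledge with results of these arrays known, were divided evenly about 0. Of 99 such genes 71 were measured. Of these 35 lay above 0 and 36 below, with a median log2 ratio of -0.01. By 1.5-fold or more, 3 of the 71 were higher and 4 lower, while 5.85% of all measured genes were higher and 5.52% lower. Among 11 genes of sterol uptake, transport and storage 7 lay below 0, with a median of -0.15, and the lowest was *Osbp*, an oxysterol-binding lipid exchanger, at 339 with *Flcn* siRNA and 516 with scramble siRNA (-0.61). Among 12 genes of SREBP processing and turnover 9 lay below 0, with a median of -0.14. They include *Syvn1*, a ubiquitin ligase of the endoplasmic reticulum, with 446 against 872 (-0.97, and -0.78 at its other probe set), and *Erlin1*, an endoplasmic reticulum protein that binds cholesterol, with 542 against 823 (-0.60, and -0.34 at its other probe set). *Lpin1*, a phosphatidate phosphatase that also restrains nuclear SREBP, had 42.2 against 20.8 (1.02), with 0.32 at its other probe set.

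Around the synthesis pathways themselves the neighbours lay close to 0. The 13 genes of isoprenoid branches had a median log2 ratio of 0.01, with *Fntb*, a subunit of the farnesyltransferase, at weak signals of 16.7 against 36.4 (-1.12). Other fatty acid elongation, desaturation and activation genes had a median of 0.08 over 14 genes, with *Hacd1*, a dehydratase of elongation, at 77.8 against 51.4 (0.60) and at 0.16 at its other probe set. The 8 genes that supply acetyl-CoA, malonyl-CoA and NADPH had a median of 0.09, with no call in either direction. The citrate carrier *Slc25a1*, which brings citrate to *Acly*, was the highest of them, with 218 against 153 (0.51). Of other sterol enzymes 6 were measured, with a median of 0.01, and of other LXR targets and partners 7, with a median of -0.03, where *Abcg4*, a relative of *Abcg1*, had 34.6 against 21.8 (0.67).

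**Figure D4:**
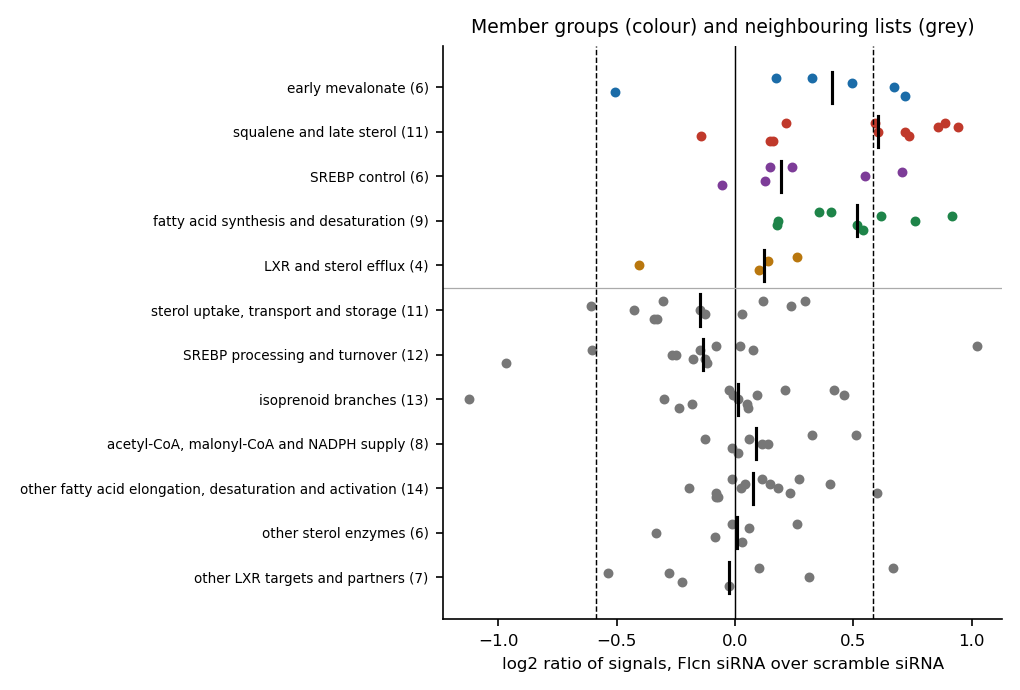
Ratio of *Flcn* siRNA to scramble siRNA signals on the log2 scale for genes of the 5 member groups (coloured) and of 7 neighbouring lists (grey), with the number of genes in parentheses and 1 array per condition. Black bars are medians and dashed lines mark 1.5-fold; the medians of the grey lists lie between -0.15 and 0.09, and those of the member groups between 0.12 and 0.60.

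**Figure D5:**
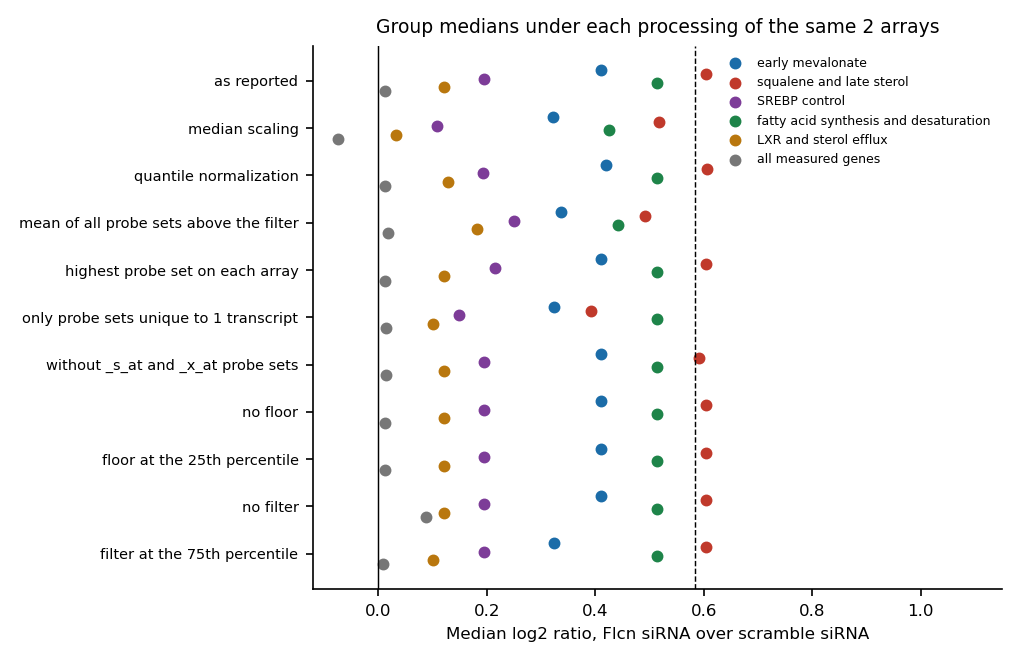
Median log2 ratio, *Flcn* siRNA over scramble siRNA, of each member group and of all measured genes when the same 2 arrays are processed in 11 ways. The solid line marks 0 and the dashed line 1.5-fold; the late sterol group ranges from 0.39 to 0.61, the LXR group from 0.03 to 0.18, and with no filter all genes shift to 0.09 because most weak signals sit at the floor.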

How the data were processed

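RNA of RAW264.7 cells that received *Flcn* siRNA or scramble siRNA was hybridised to 1 Affymetrix mouse genome array per condition. The deposited values are signal intensity on a linear scale, which the authors made with GCOS, and its scaling target is not given in the sources used here. On both arrays the mean after trimming 2% at each end is 100.001. Of 45101 probe sets, 932 with several genes, 9211 without a listed gene and the 64 controls, most of them unlisted as well, were left out. The other 34945 were named through the platform annotation, with symbols updated through the RefSeq gene table of GRCm38.p6, in which 34741 had their Entrez ID. They name 18193 genes.

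Each gene took the probe set whose geometric mean over both arrays was highest. Signals below the array median were raised to it, log2 ratios of *Flcn* siRNA over scramble siRNA were taken, and genes with a geometric mean of at least 13.2 were kept. The members and lists were chosen with earlier results of these data known. Named genes are the members, neighbours past 1.5-fold, *Flcn* and *Gpnmb*, and the other genes named (*Slc25a1*, *Csf1r* and *Lyz2*) were picked once their values were known. The functions were tested on simulated data. Alternatives covered scaling, probe set choice, floor and filter. Scripts ran in Python 3.11.15 with numpy 2.4.6, pandas 2.3.3 and matplotlib 3.10.9.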

Additional observations from a re-analysis of the deposited data

How the results depend on the processing

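The 6 medians (all members and the 5 groups) stayed above 0 under 9 alternatives and 1 more added after the data were seen, which leaves out probe sets with an _s_at or _x_at suffix, since these may share sequence with other genes. Values are given for medians that shifted by more than their standard error, computed from the spread between probe sets. With median scaling the median log2 ratio was 0.29 over all members, 0.52 in the late sterol group and 0.43 in fatty acid synthesis, and the number of members lower by 1.5-fold or more was 1. With only probe sets unique to 1 transcript it was 0.32 over all members and 0.39 in the late sterol group, which is the ratio of the weak *Msmo1* probe set, whose scramble siRNA signal was raised to the array median. Without _s_at and _x_at probe sets it was 0.34 over all members, and with the mean of all probe sets 0.49 in the late sterol group. Members called higher ranged in number from 9, with unique probe sets, to 13. None of the 13 members called higher lay below 0 in any setting that measured it. *Hsd17b7* was under 1.5-fold with the mean of its probe sets (0.40), with unique probe sets and without _x_at probe sets (0.24 in both). No paired analysis was possible because there is 1 array per condition. Without replicates the spread between cultures is unknown, and ratios near the array medians, such as those of *Nr1h3* and *Tm7sf2*, rest on weak signals.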
